A study of Drosophila melanogaster with 2 samples.

Results

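The odorant (Or), gustatory (Gr) and ionotropic (Ir) receptor genes of Drosophila melanogaster were examined in ChIP-seq peak lists of the transcription factor Bab2. Members were all protein-coding genes of the dm6 annotation named Or, Gr or Ir with a number, together with the odorant co-receptor Orco. They came to 180 of 13945 protein-coding genes, with 60 Or genes (Orco included), 60 Gr genes and 60 Ir genes. Bab2 (bric-à-brac 2) is a BTB-domain factor known for roles in leg segments, ovary development and abdominal pigmentation.

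Chromatin came from whole embryos of both sexes, collected from 0 to 24 h after egg laying, from a stable transgenic line whose Bab2 carries eGFP at the C-terminus. It was precipitated with an antibody against GFP, per the sample descriptions, although a separate antibody field of the labels names the target, Bab2. The samples form 1 group of 2 libraries, numbered 2 and 3 as biological replicates and taken from separate biosamples of 1 fly strain, and no untagged or mock library was analysed here. The sources used here do not give the transgene's promoter or copy number. Because whole embryos mix all cell types, a site bound in a few cells and a site bound weakly in many cannot be told apart.

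Each odorant receptor pairs with the co-receptor Orco to form an odour-gated channel, and most olfactory neurons choose a single such receptor. Gustatory receptors detect sugars, bitter compounds or, in the antenna, carbon dioxide. Ionotropic receptors are relatives of synaptic glutamate receptors that sense acids, amines, humidity, temperature and some tastes, usually together with the co-receptors Ir8a, Ir25a, Ir76b or Ir93a. Receptors of all 3 families are made in small numbers of sensory neurons, and those of the larva arise late in embryogenesis.

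The authors deposited a relaxed list for each replicate, a relaxed list from the pooled reads of both, and an optimal list of reproducible peaks. These held 27372, 25804, 24109 and 4720 peaks on dm6. The relaxed lists hold peaks and background by design. Each peak has 1 signal value, an enrichment whose scale the sources used here do not give and which was used only to rank or describe peaks within a list. Signals ran from 76.1 to 2524 (median 128) in the optimal list, 24.7 to 2524 (median 37.6) in the pooled list, 13.0 to 1163 (median 18.9) in replicate 2 and 12.8 to 1461 (median 19.5) in replicate 3. The read depth is unknown. A gene was counted when a summit, the highest point of a peak, lay within 500 bp of one of its transcription start sites (TSS). Shares are given with Clopper-Pearson 95% intervals, which cover counting error only and treat neighbouring genes as if they were independent.

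Few chemoreceptor genes had a Bab2 summit at a start site. In the optimal list 1 of 180 had one (0.556%, interval 0.0141% to 3.06%), against 20.1% of all protein-coding genes. It was an ionotropic receptor, Ir60e, and its summit lay at the start of a neighbouring gene. No Or gene and no Gr gene had an optimal summit, and 0 of 60 allows a share of up to 5.0% in each family. What a count of 0 allows is given here and below as 3 over the number of genes. The Clopper-Pearson limit, drawn as the error bar, is somewhat higher (5.96% for 0 of 60).

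The relaxed lists, which reach much weaker peaks, gave more members but kept the gap. In the pooled list 11 of 180 had a summit (6.11%, 3.09% to 10.7%), against 47.0% of all genes. Replicate 2 gave 14 (7.78%, 4.32% to 12.7%), against 48.3% of all genes. Replicate 3 gave 15 (8.33%, 4.74% to 13.4%), against 47.4%. In all 3 relaxed lists together there were 5 (2.78%, 0.908% to 6.36%), against 38.2%.

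By family, the pooled list held 1 Or, 5 Gr and 5 Ir genes. Replicate 2 held 4, 5 and 5, and replicate 3 held 3, 7 and 5. The 5 genes found in all 3 relaxed lists were 2 Gr and 3 Ir genes, with no Or gene. The intervals of the families overlapped widely in every list, so no order among them is read from these counts.

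**Figure D1:**
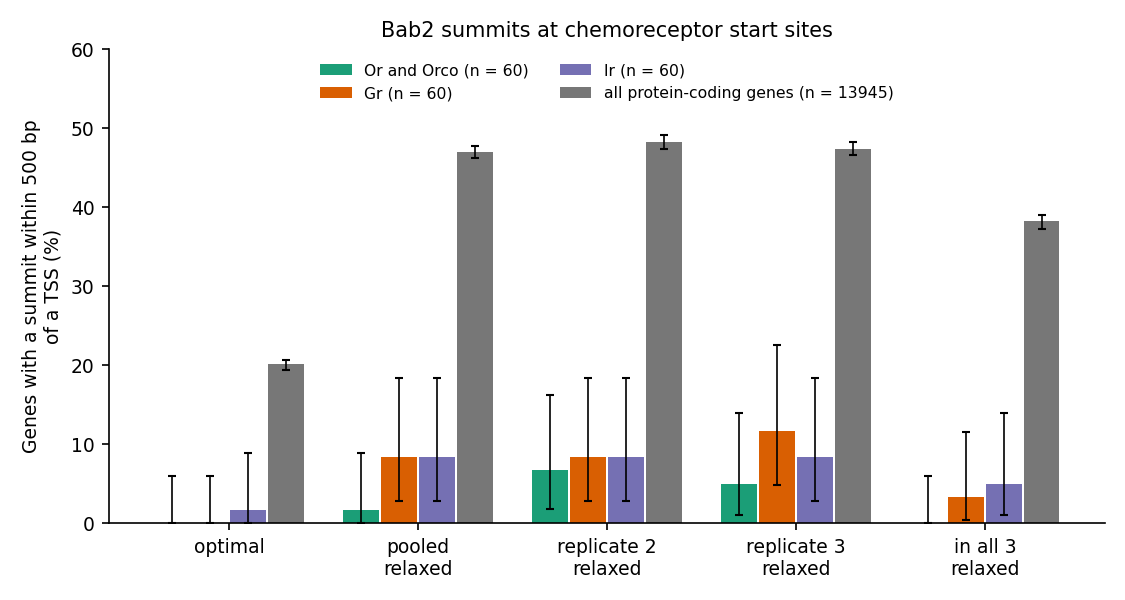
Share of genes (%) with a Bab2 summit within 500 bp of a TSS in each list, for the 3 receptor families and for all protein-coding genes; bars are shares and error bars are Clopper-Pearson 95% intervals. The highest family share is 7 of 60 Gr genes in replicate 3, and all family bars lie below those of all genes, which range from 20.1% to 48.3%.

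Within 500 bp, the replicates marked mostly different receptor genes. Of the 14 members of replicate 2 and the 15 of replicate 3, 5 were in both, which is 35.7% of the former and 33.3% of the latter. For all protein-coding genes, 5446 were in both, or 80.9% of 6730 and 82.3% of 6614. Members and all genes were not matched for signal here. In each replicate 10 of the 12 summits nearest to a receptor's own TSS lay below the list median. With a distance of 1000 bp, replicate 2 had 30 members (16.7%) and replicate 3 had 29 (16.1%). At that distance 15 (8.33%) were in all 3 relaxed lists. The shares of all genes were then 57.8%, 56.8% and 46.4%. In the Or family the 4 genes of replicate 2 (Or45b, Or63a, Or65a and Or85a) and the 3 of replicate 3 (Or10a, Or22c and Or46a) had none in common. Over any of the relaxed lists, 24 of 180 members had a summit (13.3%), against 57.2% of all genes. The other 156 had none in any of these lists.

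A summit near a receptor start did not always belong to the receptor. Ir60e (FBgn0035019; 2R, 24529554 to 24531272, minus strand) was the clearest case. The optimal peak (2R, 24531354 to 24531777) had a signal of 86.56 and ranked 3988 of 4720. The pooled list held it with the same signal and rank (3988 of 24109), so the optimal and pooled lists are not independent. The summit of this peak lay 294 bp upstream of Ir60e but 28 bp from the TSS of CG13585. In the replicates the signal was 31.39 in replicate 2 and 51.59 in replicate 3, again 27 and 25 bp from CG13585. The only optimal summit of the 3 families was therefore nearest to the start of a gene outside them.

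Gr63a (FBgn0035468; 3L, 3894999 to 3896603, minus strand), one of the pair of receptors that detect carbon dioxide, had the next highest pooled signal among the members. Its summit had a signal of 55.27 in the pooled list, 21.27 in replicate 2 and 34.19 in replicate 3. It lay upstream of Gr63a (at -256 bp) and 41 bp from the TSS of Lamtor4, a gene for a subunit of the lysosomal Ragulator complex. Ir76a, an antennal amine receptor gene (FBgn0260874), had a pooled summit of signal 24.8, rank 24014 of 24109, 186 bp from the TSS of CG14102. That summit was also called in replicate 2 (signal 21.66) and not within 500 bp in replicate 3.

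Counting each summit only for the gene with the nearest TSS left 8 members in the pooled list (4.44%), against 39.1% of all genes, and 0 in the optimal list, against 14.7%. Among the 11 distinct pooled summits, 3 lay nearest to another gene's start and 8 nearest to a receptor's own. In replicate 2 these numbers were 4 and 12 of 16 summits, and in replicate 3 they were 2 and 12 of 14. The 8 pooled summits of the receptors' own were weak. The strongest of them ranked 9043 of 24109, and 6 of 8 had a signal under the list median of 37.6. Of all 11 pooled summits, 9 were under 48.2, the median signal of pooled summits at protein-coding starts.

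In the pooled list the strongest summit of a receptor's own was at Ir75d (FBgn0036829; 3L, 18908260 to 18911182, minus strand), a gene for an antennal olfactory receptor. It lay 362 bp downstream of the TSS, in an intron of Ir75d that is also within an intron of COX6AL2. Its signal was 45.74 in the pooled list, 17.33 in replicate 2 and 24.87 in replicate 3. The replicate 3 value was above the median of its list (19.5) and the replicate 2 value was below (18.9). The replicate summits lay 374 and 346 bp downstream, and the pooled summit lay between them.

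Ir67c (FBgn0052058; 3L, 10432384 to 10434105, minus strand) had a summit in intergenic sequence 252 bp upstream of its TSS. The signal was 33.92 in the pooled list, 16.77 in replicate 2 and 17.59 in replicate 3, all below the list medians. The replicate summits lay 350 and 266 bp upstream. No other protein-coding TSS lay within 500 bp of these summits.

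Sequences at some pooled summits are shown as examples of places where Bab2 peaks were called at a receptor start. Those of Or45b, Gr47b and Gr89a, which also had a pooled summit of their own, are not shown. Each shown sequence reaches 50 bases to either side of the pooled summit. It is read on the gene's strand, with the 11 central bases in capitals. The first 5 are receptors' own, Ir75d (chr3L:18910770-18910870, minus), Ir67c (chr3L:10434307-10434407, minus), Ir100a (chr3R:31800727-31800827, plus), Gr22f (chr2L:1756065-1756165, minus, all coding sequence) and Gr5a (chrX:5680400-5680500, plus). The Gr63a window (chr3L:3896809-3896909, minus) is an example of a neighbour's promoter beside a receptor gene, and all are on dm6.
Ir75d: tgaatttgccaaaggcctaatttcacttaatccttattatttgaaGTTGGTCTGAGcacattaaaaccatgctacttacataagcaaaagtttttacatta
Ir67c: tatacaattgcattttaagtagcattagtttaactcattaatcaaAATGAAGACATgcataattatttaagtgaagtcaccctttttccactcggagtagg
Ir100a: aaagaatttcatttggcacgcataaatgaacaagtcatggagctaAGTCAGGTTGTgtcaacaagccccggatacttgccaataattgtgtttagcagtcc
Gr22f: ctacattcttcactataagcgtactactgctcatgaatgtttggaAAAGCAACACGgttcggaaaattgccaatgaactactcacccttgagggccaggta
Gr5a: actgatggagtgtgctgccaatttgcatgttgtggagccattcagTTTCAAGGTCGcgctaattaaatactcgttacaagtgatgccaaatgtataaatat
Gr63a: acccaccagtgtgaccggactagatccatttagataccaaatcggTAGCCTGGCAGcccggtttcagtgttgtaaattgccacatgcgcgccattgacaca
The letters TAATTA, the core of many homeodomain sites, were found at bases 60 to 65 of the Ir67c and of the Gr5a window. The Gr5a window also held ATGCAAAT, the octamer of POU factors, on the opposite strand at bases 21 to 28, and TATAAA at bases 93 to 98. None of the motifs searched (these 3, TATCGATA, GAGAGAG and CACGTG, on both strands) was found in the Ir75d, Ir100a, Gr22f or Gr63a window, which says only that these letters are not in these windows.

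Gr47b (FBgn0041241; 2R, 11361900 to 11363405, plus strand), a gustatory receptor gene, had a summit in its exon 300 bp downstream of the TSS, with signals of 34.21 (pooled), 13.67 (replicate 2) and 17.65 (replicate 3). In replicate 2 this peak ranked 25091 of 27372. Ir75d, Ir67c and Gr47b are the members whose own start had a summit in all 3 relaxed lists.

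The other 5 receptors with a pooled summit of their own were each called in 1 replicate. Or45b, an odorant receptor gene of the larva (FBgn0033422; 2R, 9559598 to 9561068), was the only Or gene in the pooled list. Its pooled summit had a signal of 38.25, 222 bp downstream of the TSS in its exon. Replicate 2 held 2 summits there, of signal 31.17 at 13 bp and 21.83 at 255 bp downstream, while the nearest summit in replicate 3 lay at -1899 bp. The 31.17 summit, rank 5953 of 27372, was the best-ranked summit of a receptor's own in replicate 2.

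Gr5a, the trehalose receptor of sugar neurons (FBgn0003747; X, 5680617 to 5682488, plus strand), had a pooled summit of signal 25.1, 167 bp upstream. That summit was nearest to Gr5a but also lay within 500 bp of another gene's start, 473 bp from the TSS of Tre1. Replicate 2 held summits of 13.54 at 171 bp upstream and 15.07 at 59 bp downstream, and replicate 3 had none within 500 bp. Gr22f (FBgn0041249; 2L, 1755253 to 1756451) had a pooled signal of 25.24 in its exon and 16.09 in replicate 2. Gr89a, a receptor gene of bitter neurons (FBgn0038440; 3R, 16497817 to 16498959), had 27.75 in the pooled list and 15.28 in replicate 3, with the summit in an exon of Decay, a caspase gene. Ir100a (FBgn0039879; 3R, 31800963 to 31802774), which is nested in an intron of CG42233, had 26.73 in the pooled list and 14.88 in replicate 3. The pooled signals of these 4 genes, 25.1 to 27.75, were close to the lowest of the list, 24.7.

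A further 13 members had a summit in 1 replicate and none within 500 bp in the pooled list. In replicate 3 these were Gr10a and Or10a, which share a start site (1 summit, signal 27.87), Or22c (17.32), Gr21a (16.85), Ir60a (15.59), Gr93a (14.9), Or46a (13.1) and Gr97a (13.03). Gr21a encodes the partner of Gr63a in carbon dioxide detection. In replicate 2 they were Or63a (14.94), Or65a (14.82), Gr28b (14.69), Or85a (13.99) and Ir60b (13.44), the last at 54 bp from the TSS of Letm1. All of these signals but that of Gr10a and Or10a lay below the median of their list.

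**Figure D2:**
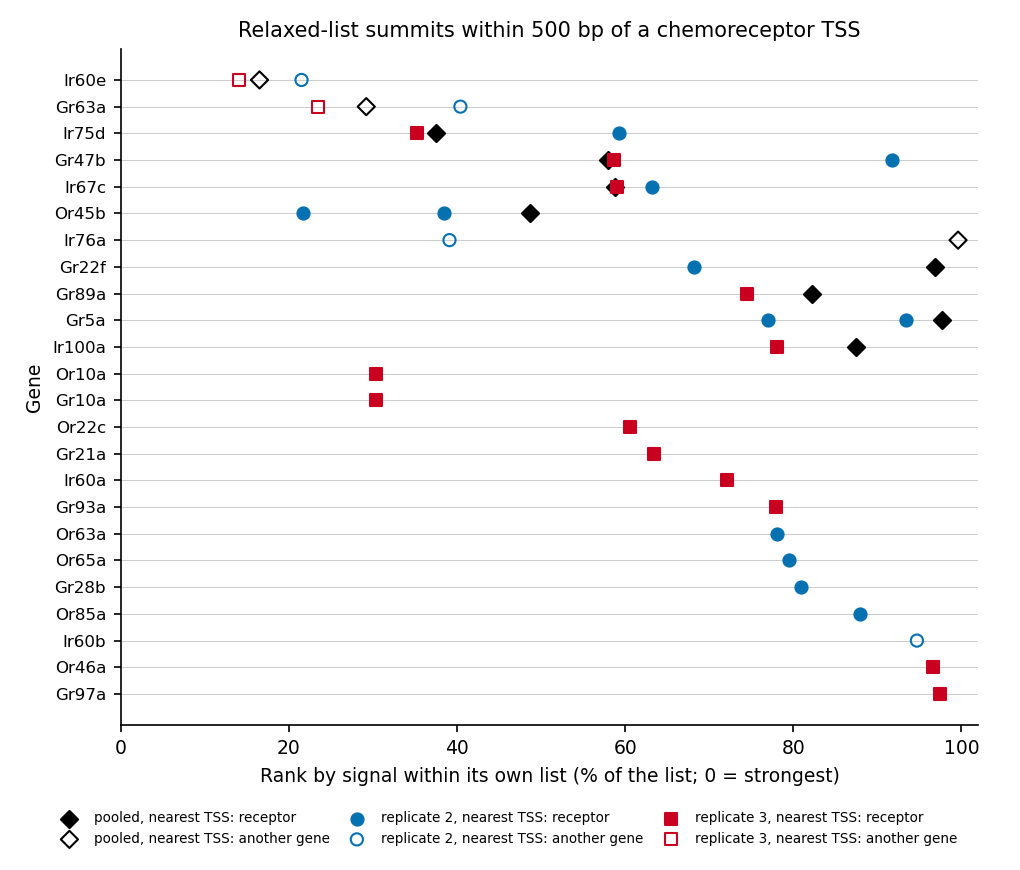
Rank by signal within its own list (% of the list, 0 = strongest) of each relaxed summit within 500 bp of a chemoreceptor TSS; diamonds are the pooled list, circles replicate 2 and squares replicate 3, filled where the receptor's TSS is nearest and open where another gene's is. The 24 genes are on the vertical axis; Ir60e and Gr63a, whose summits lie at neighbours, have the strongest pooled ranks (3988 and 7050 of 24109), and 13 genes have no pooled point.

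None of the 5 co-receptor genes had a summit within 500 bp in any list. For 0 of 5 the interval reaches 52.2%. It includes the share of all genes, which was 47.0% in the pooled and 20.1% in the optimal list. Orco (FBgn0037324; 3R, 5407183 to 5412406, minus strand), which all Or channels need, had its nearest pooled summit 602 bp upstream, with a signal of 26.61 and rank 21249 of 24109. The nearest summit in replicate 3 lay at -835 bp, that is upstream (signal 30.39), and the nearest in replicate 2 lay 8033 bp downstream. Orco was the member just outside the 500 bp limit in the pooled list, followed by Ir94h at 633 bp upstream. The members just inside were Ir75d at 362 bp and Gr22f at 336 bp downstream. The Orco promoter is shown as that of the gene shared by the whole Or family. It is the 250 bases before the TSS (dm6, chr3R:5412407-5412656, minus strand), with capitals marking 2 overlapping GAGAGAG matches.
Orco: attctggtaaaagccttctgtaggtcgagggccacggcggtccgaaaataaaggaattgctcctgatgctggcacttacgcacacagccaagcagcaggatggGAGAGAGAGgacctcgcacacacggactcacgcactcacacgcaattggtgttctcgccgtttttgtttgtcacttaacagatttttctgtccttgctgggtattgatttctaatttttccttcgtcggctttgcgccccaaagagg

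Ir25a, the most widely used Ir co-receptor (FBgn0031634; 2L, 4830846 to 4835300), had its nearest pooled summit 755 bp upstream (signal 29.29), in an exon of tank. One of the strongest optimal peaks, of signal 989.2 and rank 41 of 4720, lay 2567 bp upstream of Ir25a and 132 bp from the TSS of tank. Ir8a, the co-receptor of acid sensing, had its nearest pooled summit 1070 bp upstream (28.11), and Ir76b, the co-receptor of amine and taste receptors, 1614 bp upstream (31.56). For Ir93a, the co-receptor of temperature and humidity sensing, the nearest pooled summit was 13449 bp downstream of the TSS (36.76). The nearest pooled summit of each of the 5 co-receptor genes had a signal below the list median of 37.6.

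Counts by role were small. In the pooled list a summit was found at 1 of 25 larval odorant receptor genes (Or45b), 1 of 9 sugar receptor genes (Gr5a), 1 of 5 receptor genes shared by most bitter neurons (Gr89a) and 1 of 2 carbon dioxide receptor genes (Gr63a, at Lamtor4). The share of all genes there was 47.0%. The intervals of the sugar (0.281% to 48.2%), bitter (0.505% to 71.6%) and carbon dioxide (1.26% to 98.7%) groups include it. In the same order the counts were 2, 1, 0 and 1 in replicate 2. In replicate 3 they were 1, 0, 1 and 2. The odorant receptors of the larva, the set in use when embryogenesis ends, had 4.0% (0.101% to 20.4%) with a pooled summit. On the chromosome arms the pooled counts were 1 of 31 members on 2L, 3 of 46 on 2R, 4 of 35 on 3L, 2 of 43 on 3R and 1 of 25 on X. On every one of these arms between 44.0% and 48.8% of all genes had one.

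The gap was widest just upstream of the start. In 500 bp steps from the outermost TSS, the pooled list held 0.0667 summits per kb of member sequence just upstream of the start (1 to 500 bp), against 0.76 for other protein-coding genes. In the first 500 bp downstream the values were 0.0444 and 0.329. In the 4 steps that begin 2500 to 1000 bp upstream members had 0.1 to 0.133 and other genes 0.23 to 0.248, and in the step that begins 3000 bp upstream the values were 0.233 and 0.243. Within 500 bp of any TSS, members had 0.0572 pooled summits per kb (exact Poisson 95% interval 0.0286 to 0.102), which was below the mean of the whole arms, 0.18 per kb. The same was measured in replicate 2 (0.0832, 0.0476 to 0.135, arms 0.204) and replicate 3 (0.0728, 0.0398 to 0.122, arms 0.193). For all protein-coding genes the pooled value was 0.464.

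The bodies of the receptor genes were sparse too. Over 472.0 kb of gene span the members held 18 pooled summits, or 0.0381 per kb (0.0226 to 0.0603), against 0.182 for all protein-coding genes. The optimal list had 0 summits in the members' spans and 0.0304 per kb over all genes. The exon and intron make-up of these spans was not compared.

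**Figure D3:**
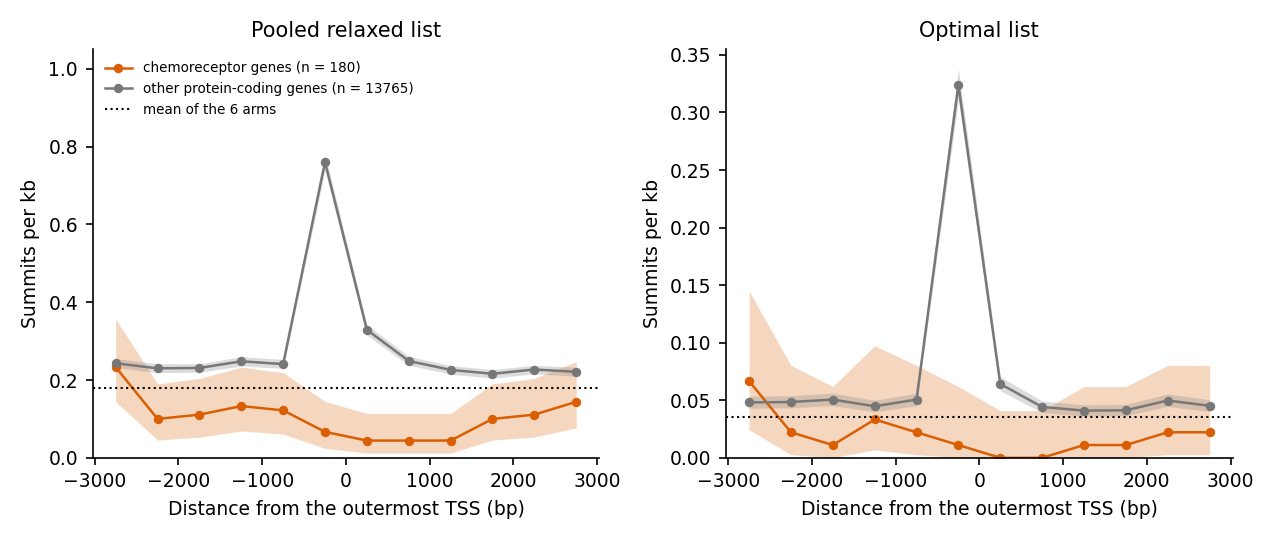
Summits per kb against distance from the outermost TSS (bp, negative upstream, 500 bp steps) for 180 chemoreceptor genes and 13765 other protein-coding genes; shading is the exact Poisson 95% interval and the dotted line is the mean of the 6 arms. In the pooled list other genes reach 0.76 per kb just upstream of the start, where chemoreceptor genes have 0.0667.

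The median distance from a member's TSS to the nearest pooled summit was 4208 bp, against 644 bp for all genes. By family it was 5424 bp for Or, 3156 bp for Gr and 4060 bp for Ir genes. To the nearest optimal summit it was 17690 bp for members and 6792 bp for all genes, with 30430 bp for Or, 10700 bp for Gr and 15910 bp for Ir genes. The Or median was thus the largest in both lists. The ranges between the quartiles overlapped, in the optimal list 13400 to 50730 bp (Or), 5518 to 46900 bp (Gr) and 7042 to 36320 bp (Ir). Some neighbouring genes, such as Or33a, Or33b and Or33c, share 1 nearest optimal peak. No order among the families is read from these medians.

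The optimal summits closest to receptor genes were mostly at other genes. After Ir60e came Gr32a (FBgn0041246), a bitter and pheromone receptor gene, 650 bp from a peak of signal 104.8 whose nearest TSS is that of Idua, and Or88a (FBgn0038203), a gene for a receptor of fly-derived odours, 744 bp from a peak of 104.6 nearest to CG12402. Or9a (1025 bp upstream, signal 89.97) had its peak 35 bp from the TSS of Neb-cGP, and Gr39b (1334 bp upstream, 86.06) had it 187 bp from that of CG8665. The peak 1420 bp upstream of Gr5a (92.02) lay in an intron of Tre1, a receptor gene of germ cell migration. Or85f (1877 bp downstream, 161.3), Ir94c (1979 bp upstream, 134.8) and Ir68b (2198 bp downstream, 213.1) had theirs nearest to CG34117, CG42390 and yps. Of the 10 members with the closest optimal summits, Gr89a alone was itself the nearest gene, with an intergenic peak of signal 193.4 lying 1415 bp downstream of its TSS, past the end of the gene. That peak had a signal of 91.71 in replicate 2.

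**Figure D4:**
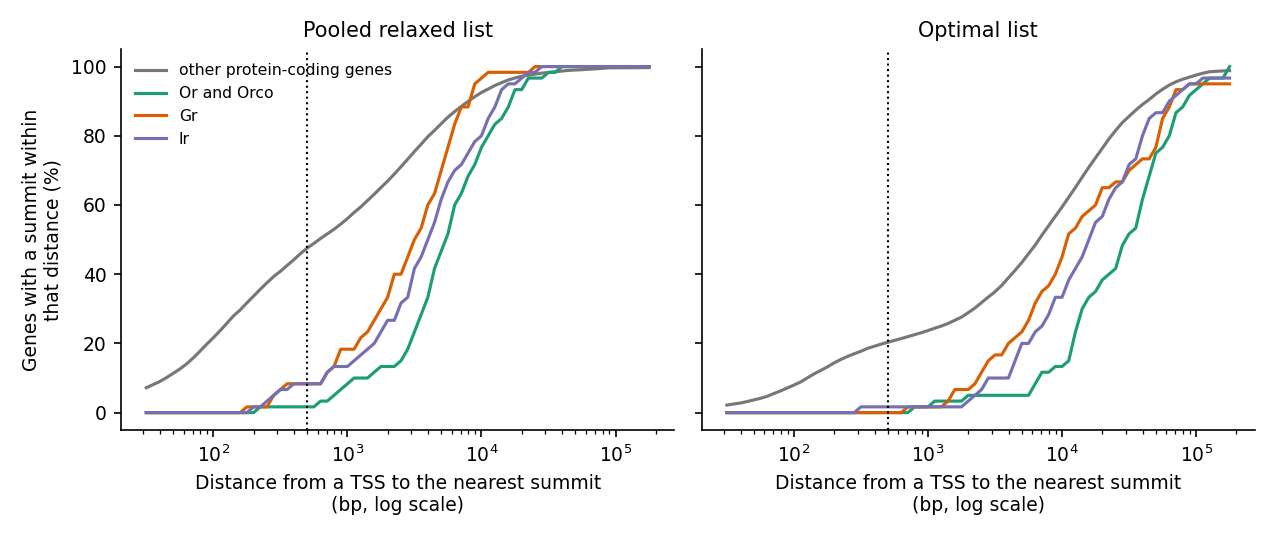
Cumulative share of genes (%) with a summit within a given distance of a TSS (bp, log scale) in the pooled and optimal lists, for the 3 families and for other protein-coding genes; the dotted line marks 500 bp. The Or curve lies furthest right over most of the range, with median distances of 5424 bp (pooled) and 30430 bp (optimal).

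Several properties of the genes bear on how often a summit can fall near a start, and the counts were repeated within them. More members than genes in general have a single TSS (92.8% against 73.5%). Among genes with 1 TSS, 10 of 167 members had a pooled summit (5.99%), against 38.9% of all such genes. Fewer members have another gene's TSS within 500 bp (12.2% against 30.9%). Among genes with 1 TSS and no other TSS within 500 bp, 8 of 149 members had a pooled summit (5.37%, 2.35% to 10.3%), against 28.5%. In the optimal list this was 0 of 149, which allows a share of up to 2.01%, against 7.96%. Both shares of all genes were lower in this class, and the members' shares stayed below them.

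Of 12 members with the start of a gene outside the 3 families within 500 bp, 3 had a pooled summit (interval 5.49% to 57.2%), against 71.1% of all genes in that position. Replicate 2 gave 5 of the 12, with an interval of 15.2% to 72.3% that includes the 70.7% of all genes, and replicate 3 gave 3. Of 24 members nested in another gene, 1 had one (4.17%), against 24.2%, with 1 in replicate 2 and 2 in replicate 3. The GC content around the start sites was alike (median 42.2% for members and 42.6% for all genes), and among genes in the middle GC range of the members 6 of 90 members had a pooled summit (6.67%), against 51.6%. Replicate 2 gave 10 of these 90 members (11.1%, against 52.7%) and replicate 3 gave 4 (4.44%, against 51.2%). Reads from near-identical copies cannot be placed, so the share of 32-base words that occur once in the genome was counted around each start. It was 95% or more for 177 of 180 members, the exceptions being the near-identical pair Or19a and Or19b (16.29% each) and Ir40a (86.81%). Among the 177, 11 had a pooled summit (6.21%), against 48.5% of all such genes. The level of transcription and the openness of chromatin at these genes were not measured here, and their part in the counts was not tested.

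The letters of the receptor promoters were also counted, from 250 bases before to 50 bases after the outermost TSS and on both strands. TATCGATA, the DRE of housekeeping promoters, was in 1 of 180 member promoters (Gr68a, 0.556%), against 9.36% of all promoters and 14.8% of those of genes with an optimal summit. GAGAGAG, bound by the GAGA factor, was in 3 (Gr93c, Ir56a and Orco, 1.67%), against 5.87%. CACGTG, an E-box, was in 5 (2.78%), against 4.2%. TAATTA was in 80 (44.4%), against 20.4%, and was most frequent in the Gr family, with 35 of 60 promoters beside 26 Or and 19 Ir promoters. ATGCAAAT was in 16 (8.89%), against 3.47%. TATAAA was in 98 (54.4%), against 45.8%, in 47 Or, 18 Gr and 33 Ir promoters. Among genes with an optimal summit these shares were 6.47% (GAGAGAG), 5.01% (CACGTG), 21.9% (TAATTA), 3.22% (ATGCAAAT) and 44.0% (TATAAA). The median GC content of these windows was 39.3% for members and 38.0% for all promoters. A match is a run of letters and not a bound site.

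Other chemosensory genes were counted in the same way, and their differences from the receptors were not tested. The shares of all genes beside them are 20.1% in the optimal list, 47.0% in the pooled list, 48.3% in replicate 2 and 47.4% in replicate 3. Odorant-binding protein genes, which encode secreted carriers of odours, had an optimal summit at 1 of 52 and a pooled one at 9 of 52 (17.3%, 8.23% to 30.3%). The optimal one was at Obp99b (3R, 29716926 to 29717349, signal 137.6, 242 bp upstream). The CheA and CheB genes had 0 of 20 in both lists, which allows up to 15.0%, with 1 of 20 in each replicate. The CD36-type genes Snmp1 and Snmp2 had none but for 1 of them in replicate 3. Pickpocket sodium channel genes had 2 of 30 in the optimal list, ppk11 and ppk16, which share 1 peak (2L, 9775197 to 9775620, signal 154.6), and 5 of 30 in the pooled list. Trp channel genes had 2 of 12, Trpm (signals 315.5 and 171.8) and the hearing channel gene nan (78.63), and 4 of 12 in the pooled list. Ionotropic glutamate receptor genes outside the Ir family, the closest relatives of the Ir genes, had 0 of 13 in the optimal list, 1 of 13 in the pooled list and in replicate 2, and 3 of 13 in replicate 3. Regulators of olfactory neuron identity had 1 of 21 in the optimal list (Xbp1, signal 190.3) and 8 of 21 in the pooled list (38.1%, 18.1% to 61.6%), with 8 in replicate 2 and 12 in replicate 3 (57.1%). The list of regulators includes bab1 and bab2, the latter being the gene of the factor assayed. In the pooled list the intervals of the regulators, the Trp channels (9.92% to 65.1%) and the Snmp genes include the share of all genes. In the optimal list those of these 3, of the pickpocket channels and of the other glutamate receptors do so.

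**Figure D5:**
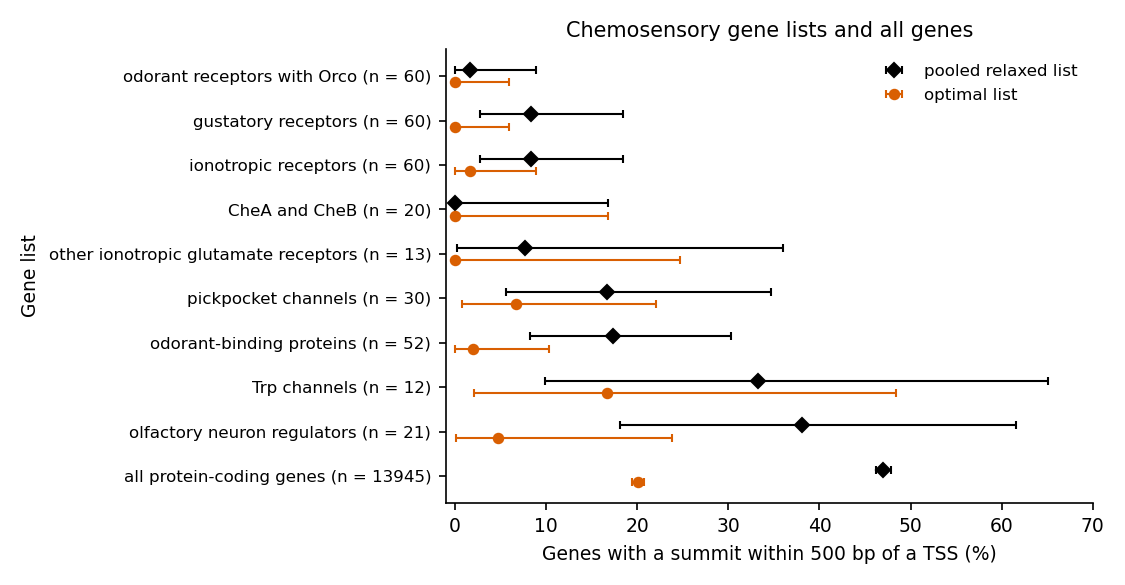
Share of genes (%) with a summit within 500 bp of a TSS for each chemosensory list and for all protein-coding genes; diamonds are the pooled list, circles the optimal list, and bars are Clopper-Pearson 95% intervals. In the pooled list the receptor families lie at 1.67% (Or) and 8.33% (Gr and Ir), the regulators of olfactory neurons at 38.1% and all genes at 47.0%.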

How the data were processed

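ChIP-seq peak lists of 2 biological replicates were analysed. The authors deposited narrowPeak lists called against a control, per the README of each sample: relaxed lists per replicate and for pooled reads, and an optimal list of peaks that passed an irreproducible discovery rate (IDR) threshold. Aligner, peak caller and read depth: not given in the sources used here. Sonicated fragments were 200 to 800 bp, per the labels. The deposited columns used were the signal per peak (of unstated scaling) and the summit offset from the peak start, from which summit positions were computed. A pooled peak in 1 case and replicate 3 peaks in 2 cases had the summit outside their interval. Lists on dm3 were not analysed here.

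Genes and 19252 TSS positions came from the Ensembl 115 annotation and sequences from the RefSeq release 6 assembly (dm6), on 6 arms (134 Mb). Coordinates are 1-based. Positive offsets are downstream. A gene counted with a summit within 500 bp of any TSS. A summit was a neighbour's where another protein-coding TSS was nearer. With 1 group, no test was run, and the design allows none between groups. Limits for a count of 0 are 3 over the number of genes. Genes named were those in all 3 relaxed lists, the co-receptors, the 10 with the nearest optimal summit, and list genes with an optimal summit. The remaining members with a relaxed summit were all counted and were named after their values were seen. The members and lists were chosen with earlier results of these data known. The counting was tested on simulated data with planted summits. Alternatives were other distances, whole peak intervals, nearest or outermost TSS, stronger peaks, 1 replicate left out and, chosen after seeing the data, uniquely mappable starts. Scripts ran in Python 3.11.15 with pandas 2.3.3, numpy 2.4.6, matplotlib 3.10.9 and, for intervals, scipy 1.17.1.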

Additional observations from a re-analysis of the deposited data

How the results depend on the processing

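In all 32 alternatives the share of members with a summit was below that of all genes; the largest member share was 16.7% and the largest ratio of the shares 0.289. The member counts themselves changed by more than 1.5 times in 17 of them. With a distance of 250 bp, members numbered 0 in the optimal list, 4 in the pooled list, 5 in replicate 2, 4 in replicate 3 and 0 in all 3 relaxed lists. In the same order the shares of all genes were 16.0%, 37.0%, 37.7%, 37.1% and 28.9%. With 1000 bp members numbered 3, 24, 30, 29 and 15, and the shares of all genes were 23.4%, 55.5%, 57.8%, 56.8% and 46.4%. When the peak interval rather than the summit had to reach within 500 bp, the optimal list gave 2 (all genes 21.6%). The nearest TSS alone gave 0 in the optimal list (all genes 14.7%) and 3 in all 3 relaxed lists (all genes 29.1%). The 2360 optimal peaks of higher signal gave 0 (all genes 11.7%), and the 10000 strongest pooled peaks gave 3 members (all genes 32.4%). With 1 replicate left out, the count standing in for the optimal one was 0 (without replicate 3) or 1 (without replicate 2). The shares of all genes were 19.6% and 20.1%. The optimal list is made from both replicates and cannot be rebuilt from 1, so these counts are not those of an optimal list. The summit at Ir60e ranked 5897 of 27372 in replicate 2 and 3627 of 25804 in replicate 3. The count in all the remaining relaxed lists was 7 (without replicate 2) or 9 (without replicate 3), and the share of all genes was 42.3% in either case. The pooled list was among these lists and still held the reads of the replicate left out. No paired analysis was possible because there was 1 group. The cause of these changes was not tested beyond what each setting does by construction.

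The read depth is unknown and no mock precipitation was analysed here, so neither a site missed for lack of reads nor a peak from background can be recognised. Relaxed lists hold background by design. Members found in 1 replicate had summits both above and below the median signal of that list.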
